A study of Mus musculus with 8 samples.

Results

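The comparison described here is that of Ikaros-deficient with wild-type thymocytes in which Notch signalling had been left intact. Its arrays were 4 of the 8 in the series: 2 of IkL/L cells and 2 of wild-type (WT) cells, each given DMSO, the vehicle, for 16 h. All genes outside chromosomes X and Y were followed, 17534 of the 18162 with a probe set on the array. Lineage-depleted mouse thymocytes had been grown on OP9 DL1, a bone marrow stromal line that carries a Delta-like Notch ligand. CD25-positive, CD44-negative DN3 cells were then sorted by their surface staining, and their RNA was labelled through a pair of amplification cycles. The other 4 arrays held WT and IkL/L cells given the gamma-secretase inhibitor MRK-003 (GSI, 5 mM in the labels) for the same 16 h, 2 arrays each. The labels give no age, sex or strain of the mice. Nothing in them says that replicates came from different animals or cultures, so the p-values rest on the spread between these arrays, which may be technical. The allele is in the mouse, not induced in culture, so the cells of each genotype had also developed separately.

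Ikaros, the product of Ikzf1, is a zinc finger factor of lymphocytes that binds DNA at sites with a GGGAA core and works with the NuRD chromatin remodelling complex, both to silence and to keep active its target genes. The IkL allele is known as a hypomorphic knock-in, with a lacZ reporter placed in Ikzf1, so that cells keep a low level of Ikaros. DN3 thymocytes rearrange the T cell receptor beta gene and depend on Notch1 signals, and Ikaros is known in these cells as a repressor of Notch target genes and a suppressor of T cell leukaemia.

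The arrays were alike in scale, with medians of the deposited log2 values between 5.25 and 5.33. Across genes the replicates correlated with r = 0.9905 in WT DMSO and 0.9952 in IkL/L DMSO, and 389 and 153 genes lay over 2-fold apart between them. The 14 DN3 markers fitted the sort: the dimmest of them, Rag2, stood at 8.88 and 9.18 in WT and 8.48 and 8.59 in IkL/L, above the median gene, and their mean log2 level was 11.67 and 11.82 in WT and 11.42 and 11.58 in IkL/L. Stromal markers averaged 6.93 and 6.13 in WT and 7.11 and 6.25 in IkL/L, higher on the array numbered 1 in each genotype. Of the myeloid and dendritic markers, 17 of 21 were below the median gene on all 4 DMSO arrays, as were all 5 erythroid, 12 of 15 NK and innate lymphoid and 8 of 13 B cell markers. By the same measure only 6 of 22 stromal and 0 of 7 gamma-delta T cell markers were below it. The NK marker Gzma was bright, at 12.98 and 12.93 in WT and 12.72 and 12.53 in IkL/L. The genotypes differed in a further way. The Y-linked gene Eif2s3y was at 3.77 and 3.42 in WT and 9.47 and 10.15 in IkL/L, and the X-inactivation transcript Xist at 12.57 and 13.02 in WT and 11.58 and 11.40 in IkL/L. The IkL/L arrays thus held both a Y-linked and a bright Xist signal, and whether they mixed cells of both sexes was not tested. Genotype and the sex of the animals cannot be told apart in these arrays. The 26 of 628 genes on X and Y that passed the test are not described.

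The IkL/L cells differed from WT cells in a limited set of genes with large differences. By limma, 290 of 17534 genes (1.65%) passed a Benjamini-Hochberg adjusted p of 0.05, here termed called. In IkL/L, 115 (0.656%) were higher and 175 (0.998%) were lower. Of the 290, 246 differed by at least 2-fold (100 higher and 146 lower) and 68 by at least 4-fold (34 higher and 34 lower), while the median difference over all genes was 0.03 on the log2 scale. Those that rose were mostly dim in WT cells, with a median log2 level of 5.51 against 6.25 for all genes. In WT 71 of the 115 were below that median, and in IkL/L the median of the 115 was 7.58. Those that fell were mostly well expressed in WT, with a median of 8.47. In IkL/L their median was 6.59, with 74 of the 175 below the median gene. The calls rest on these same levels, which therefore describe the called genes and are not a separate result. For all 290 the DMSO groups did not overlap, which was also so for 39.6% of all genes. At an unadjusted p below 0.05 there were 1766 genes.

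**Figure D1:**
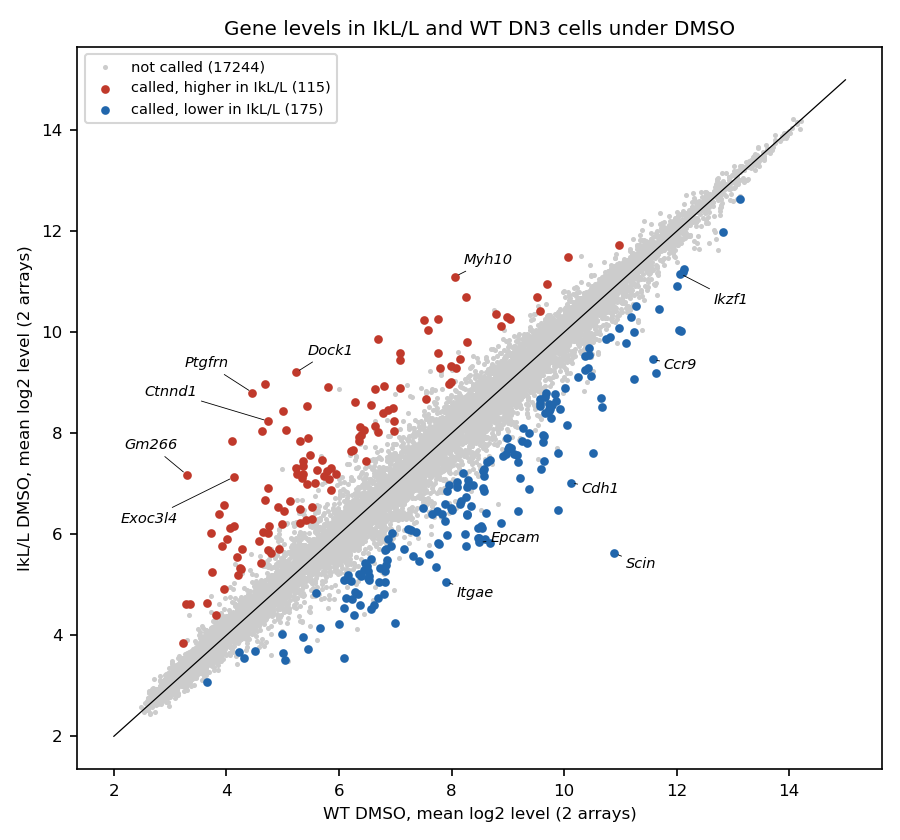
Each point is a gene, with its mean log2 level over 2 WT DMSO arrays on the horizontal axis and over 2 IkL/L DMSO arrays on the vertical axis. Red points are the 115 called genes higher in IkL/L, most of them from the lower part of the WT scale, blue points are the 175 lower in IkL/L, and grey points were not called; the line marks equal levels.

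The count of calls rested on the pair of arrays in each group. Of the WT DMSO arrays, dropping replicate 1 left 96 calls and dropping replicate 2 left 84; of the IkL/L DMSO arrays, dropping replicate 1 left 67 and dropping replicate 2 left 69. There were 56 genes (28 higher, 28 lower) that stayed called whichever of the 8 arrays was dropped. The median gap between replicates (array 1 minus array 2) over the 22 stromal markers was 0.97 in IkL/L and 0.65 in WT, against 0.06 and 0.09 over all genes; its part in the results was not tested. In a bulk sample, fewer cells of a type and less RNA per cell cannot be told apart.

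Ikzf1 itself was lower in IkL/L. Under DMSO it stood at log2 levels of 11.95 and 12.17 in WT and 11.14 and 11.19 in IkL/L cells, a difference of -0.90 ± 0.14 (SE; limma, adjusted p = 0.022). The groups did not overlap, and the remaining signal was still among the brighter genes of the array. The call was lost without any single DMSO array and when the gene's probe sets were averaged. Where these probes lie relative to the inserted reporter was not tested. Of its relatives, Ikzf2 (Helios) was at 11.25 and 11.96 in WT and 11.36 and 11.90 in IkL/L, which overlapped. Ikzf3 (Aiolos) was at 7.41 and 7.04 in WT and 8.30 and 8.51 in IkL/L, a difference of 1.18 ± 0.33 that did not pass (adjusted p = 0.18). Among the 20 measured genes nearest to Ikzf1, 10 on each side, 1 was called, against 1.65% of all genes and 1.86% of those on chromosome 11. Whether the altered allele bears on that neighbour was not tested. No member of the NuRD complex, Ikaros's partner, was called among 12 measured, and their median difference was 0.12.

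The 15 largest named increases ran from 2.55 (Wscd1) to 4.35 (Ptgfrn) on the log2 scale. Ptgfrn, a tetraspanin-associated immunoglobulin-type membrane protein, was at log2 levels of 4.64 and 4.28 in WT and 8.85 and 8.76 in IkL/L, a rise of 4.35 ± 0.26 (20.3-fold; adjusted p = 0.00036). Dock1, which activates the small GTPase Rac, was at 5.49 and 4.98 in WT and 9.18 and 9.22 in IkL/L, a rise of 3.97 ± 0.21 (15.7-fold; adjusted p = 0.00023). In both genes the WT arrays were below the median gene and the IkL/L arrays above it, with several log2 units between the groups. Ctnnd1, the p120 catenin that binds and stabilises cadherins, was at 5.05 and 4.44 in WT and 8.17 and 8.31 in IkL/L (3.50 ± 0.30; adjusted p = 0.0015). Myh10, a heavy chain of non-muscle myosin, was at 7.77 and 8.35 in WT and 11.11 and 11.10 in IkL/L (3.04 ± 0.22; adjusted p = 0.0008). Myh10 thus went from a middling to a very bright signal in IkL/L cells. Uaca, a coiled-coil protein with ankyrin repeats, was at 7.58 and 7.43 against 10.40 and 10.09 (2.74 ± 0.24), and Prom1, the stem cell surface protein CD133, at 4.16 and 3.77 against 6.57 and 6.59 (2.62 ± 0.26).

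Trim2, a ubiquitin ligase, rose by 3.43 ± 0.34, and each of its 5 other probe sets had the same sign, 3 of them called. Spsb4, the substrate adaptor of another ubiquitin ligase, was at 4.58 and 3.61 in WT and 7.38 and 8.33 in IkL/L (3.76 ± 0.36; adjusted p = 0.0021). Psma8, a proteasome subunit known from the testis, was at 5.73 and 5.14 in WT and 8.68 and 8.39 in IkL/L (3.10 ± 0.23). In each of these genes every IkL/L array was above every WT array, which the choice of the largest named genes required. The GTPase gene Rab34 (3.11 ± 0.40), the acute-phase gene Saa3 (3.17 ± 0.39) and the LIM-domain cofactor gene Lmcd1 (4.29 ± 0.61) rose too, but with wider error. Lmcd1 was at 5.32 and 4.06 in WT and 9.68 and 8.28 in IkL/L, so replicates lay over a log2 unit apart, and on each side the array numbered 1 was the brighter. The calls of Lmcd1 and Rab34 were lost when WT replicate 2 or IkL/L replicate 1 was dropped from the DMSO arrays, where Lmcd1 had an adjusted p of 0.10, and that of Saa3 without any single DMSO array. Sertad4 (3.02 ± 0.27), Exoc3l4 (3.0 ± 0.22), an exocyst-related gene, and Wscd1 (2.55 ± 0.18) completed the 15 largest named increases, of which 12 stayed called whichever array was dropped.

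The 15 largest named decreases ran from -2.36 (Kcna2) to -5.27 (Scin). Scin, the actin-severing protein scinderin, was at log2 levels of 10.78 and 11.01 in WT and 5.22 and 6.03 in IkL/L, a difference of -5.27 ± 0.41 (38.6-fold; adjusted p = 0.001). A bright gene of WT cells was thus below the median gene in IkL/L cells. Cdh1, encoding E-cadherin, was at 10.23 and 10.00 in WT and 7.12 and 6.93 in IkL/L (-3.09 ± 0.18; adjusted p = 0.00036). Itgae, encoding CD103, the integrin alpha chain whose complex with the beta7 chain binds E-cadherin, was at 8.02 and 7.78 in WT and 5.15 and 4.98 in IkL/L (-2.84 ± 0.19; adjusted p = 0.00055). Epcam, a homophilic adhesion molecule of thymocytes and epithelia, was at 8.43 and 8.55 in WT and 5.81 and 5.87 in IkL/L (-2.65 ± 0.21; adjusted p = 0.0011). In these adhesion genes the gap between the genotypes was many times that between replicates.

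Rasa4, a calcium-responsive inhibitor of Ras, was at 10.54 and 10.51 in WT and 7.66 and 7.55 in IkL/L (-2.92 ± 0.20; adjusted p = 0.00057). Gpr183, the oxysterol receptor that guides lymphocyte migration, was at 8.90 and 8.45 against 5.84 and 5.82 (-2.85 ± 0.39). Grasp, a scaffold of receptor traffic (-2.48 ± 0.24), the G protein regulator Rgs18 (-2.54 ± 0.28) and the potassium channel gene Kcna2 (-2.36 ± 0.21) fell as well. The Ets factor gene Spib, known from B cells and plasmacytoid dendritic cells, was at 8.56 and 8.52 in WT and 6.05 and 6.19 in IkL/L (-2.42 ± 0.23; adjusted p = 0.002). The T cell membrane protein gene Ms4a4b (-2.72 ± 0.41), the endoplasmic reticulum gene Mzb1 of B and plasma cells (-2.56 ± 0.26) and Lypd6b (-2.67 ± 0.28) fell too. The interferon-inducible GTPase gene Gbp8 was at 11.38 and 11.89 in WT and 9.05 and 9.34 in IkL/L (-2.45 ± 0.24; adjusted p = 0.0024). H2-Ob, a chain of the class II cofactor H2-O, was at 7.16 and 6.83 in WT and 3.89 and 4.59 in IkL/L (-2.76 ± 0.26). The calls of Gpr183 and Ms4a4b were lost without any single DMSO array, that of Rgs18 without either IkL/L DMSO array and that of Lypd6b without IkL/L DMSO replicate 1; the other 11 stayed called whichever array was dropped.

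**Figure D2:**
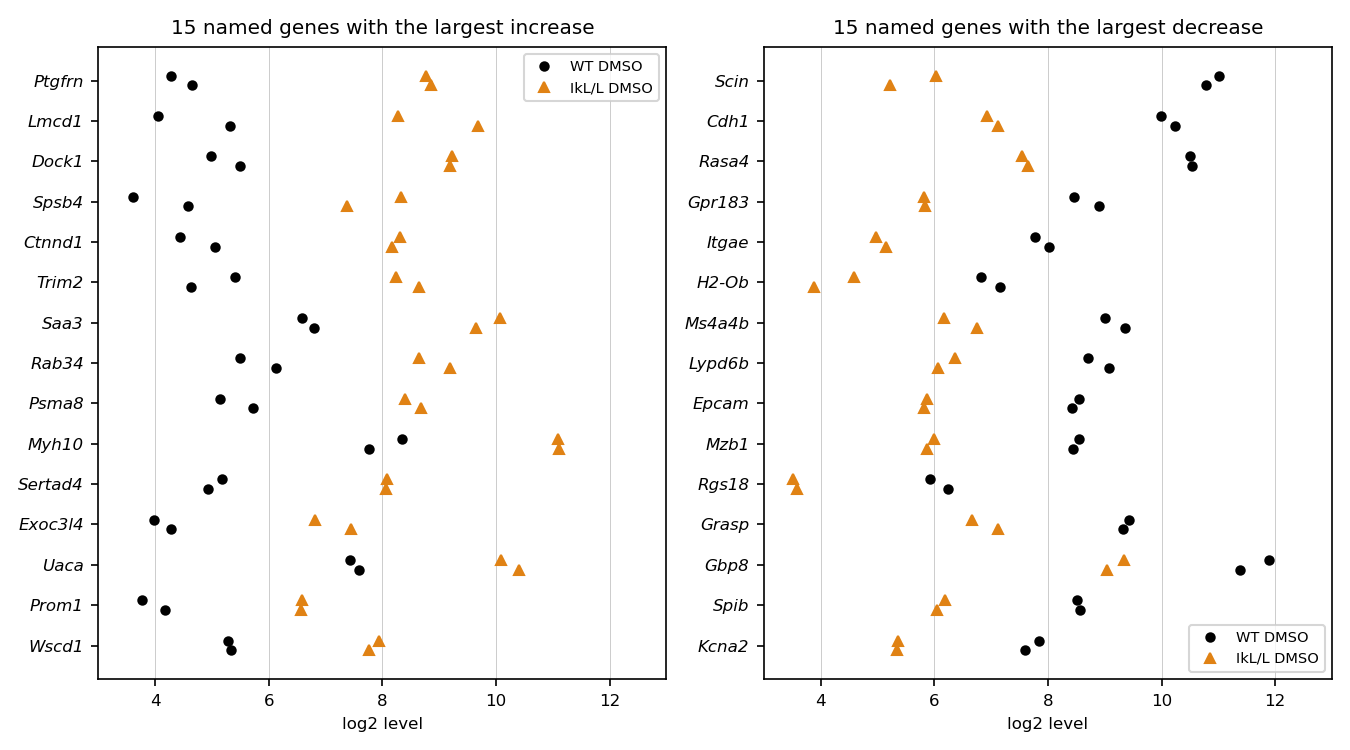
Log2 level of the 15 named genes with the largest increase (left) and decrease (right); circles are the 2 WT DMSO arrays and triangles the 2 IkL/L DMSO arrays. The genes were chosen for groups that lie apart; Scin stands at 5.22 and 6.03 in IkL/L against 10.78 and 11.01 in WT.

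Promoter sequence was set beside these differences, as Ikaros has a known binding core. The RefSeq promoters (GRCm38.p6; 250 bases before to 50 after each start, 300 in all) were searched for TGGGAA on either strand. It was found in 24.0% of 17465 promoters of measured genes, in 29.9% of 107 promoters of 79 genes called higher and in 25.3% of 158 promoters of 118 genes called lower. The shorter GGGAA, which lies within it, was found in 64.3%, 65.4% and 61.4%. These shares are given as a description, and a match shows letters only, not a bound site. Of the 15 named genes with the largest increase, 14 had a RefSeq promoter and 4 of them a match; of the 15 with the largest decrease, 9 had one and 2 of them a match. The promoters of the 3 largest increases and the 3 largest decreases with an entry are printed to show both cases, with TGGGAA, or its reverse complement TTCCCA, in capitals.
Ptgfrn (chr3:101110117-101110416, minus strand, higher in IkL/L): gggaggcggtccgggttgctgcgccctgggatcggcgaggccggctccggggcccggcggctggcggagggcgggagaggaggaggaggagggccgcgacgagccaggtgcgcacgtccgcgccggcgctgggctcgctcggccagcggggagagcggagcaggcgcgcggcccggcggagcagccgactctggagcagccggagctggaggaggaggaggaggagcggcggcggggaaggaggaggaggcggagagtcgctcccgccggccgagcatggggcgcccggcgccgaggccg
Lmcd1 (chr6:112273508-112273807, plus strand, higher in IkL/L): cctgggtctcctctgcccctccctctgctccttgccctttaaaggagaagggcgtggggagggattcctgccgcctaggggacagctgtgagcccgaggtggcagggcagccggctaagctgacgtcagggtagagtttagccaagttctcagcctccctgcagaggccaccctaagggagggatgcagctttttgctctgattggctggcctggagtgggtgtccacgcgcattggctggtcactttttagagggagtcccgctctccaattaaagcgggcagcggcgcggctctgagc
Dock1 (chr7:134670437-134670736, plus strand, higher in IkL/L): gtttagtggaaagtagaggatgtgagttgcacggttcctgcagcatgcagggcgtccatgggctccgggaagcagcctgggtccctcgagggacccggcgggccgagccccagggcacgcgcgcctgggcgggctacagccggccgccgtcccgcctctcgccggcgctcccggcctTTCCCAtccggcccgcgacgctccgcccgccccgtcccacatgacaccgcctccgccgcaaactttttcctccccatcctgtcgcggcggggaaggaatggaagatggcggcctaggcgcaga
Scin (chr12:40134179-40134478, minus strand, lower in IkL/L): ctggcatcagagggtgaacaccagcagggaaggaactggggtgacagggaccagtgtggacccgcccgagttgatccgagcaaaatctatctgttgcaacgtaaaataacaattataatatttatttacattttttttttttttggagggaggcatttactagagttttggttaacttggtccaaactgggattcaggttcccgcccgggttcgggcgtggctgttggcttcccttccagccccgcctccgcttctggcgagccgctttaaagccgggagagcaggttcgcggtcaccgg
Rasa4 (chr5:136083666-136083965, plus strand, lower in IkL/L): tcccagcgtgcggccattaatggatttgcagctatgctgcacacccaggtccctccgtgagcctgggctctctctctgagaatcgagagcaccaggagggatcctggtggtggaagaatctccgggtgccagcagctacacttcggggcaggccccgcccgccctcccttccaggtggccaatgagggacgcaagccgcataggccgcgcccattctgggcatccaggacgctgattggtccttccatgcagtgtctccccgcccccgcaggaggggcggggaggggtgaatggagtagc
Gpr183 (chr14:121965144-121965443, minus strand, lower in IkL/L): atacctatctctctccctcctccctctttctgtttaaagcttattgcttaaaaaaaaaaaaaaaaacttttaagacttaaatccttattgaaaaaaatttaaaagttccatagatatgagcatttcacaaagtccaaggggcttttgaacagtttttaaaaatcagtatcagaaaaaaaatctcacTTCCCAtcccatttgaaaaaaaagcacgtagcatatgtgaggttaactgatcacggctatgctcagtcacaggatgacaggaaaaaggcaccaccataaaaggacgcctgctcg

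In each direction 1 of the 3 windows held a match, at position -73 relative to the start of Dock1 and at -64 in Gpr183.

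Over 35 lists with 621 measured genes, 25 genes (4.03%) were called, against 1.65% of all genes. The lists were chosen with earlier results of these data known, so the higher share is not a result about them. Of the 290 called genes, 265 were in no list. A list is described by its count and by the median of its log2 differences, to be read against 0.03 for all genes, and no list was tested as a set. Lists with no member called by limma had between 0 and 14 members at an unadjusted p below 0.05, the most in the G2/M list.

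Of 23 Notch targets measured, 2 rose and 1 fell under DMSO, with a median of -0.06. Dtx1, a Notch-induced ubiquitin ligase, was at 12.09 and 11.96 in WT and 11.74 and 11.84 in IkL/L, a difference of -0.24 ± 0.20 (95% interval -0.69 to 0.21). Hes1, the Notch-induced repressor, was at 10.22 and 9.97 in WT and 10.06 and 9.57 in IkL/L, which overlapped. Nrarp (0.06 ± 0.22), Myc (0.01 ± 0.57), the pre-T cell receptor gene Ptcra (-0.37 ± 0.15), Notch3 (-0.53 ± 0.30) and Il2ra, which encodes CD25 (-0.33 ± 0.15), did not pass. The members that rose were Fjx1, a secreted kinase of the Golgi, at 5.62 and 5.27 in WT and 8.08 and 7.75 in IkL/L (2.47 ± 0.23; adjusted p = 0.0018), and the insulin-like growth factor receptor gene Igf1r (1.33 ± 0.26; adjusted p = 0.048). The member that fell was Cdkn1a, the cell cycle inhibitor p21, also counted among p53 targets, at 9.54 and 9.62 against 8.64 and 8.56 (-0.98 ± 0.15). Fjx1 stayed called whichever array was dropped, and Igf1r and Cdkn1a lost theirs without at least 3 of the DMSO arrays. None of the 27 Notch pathway components was called (median 0.01). Notch1 was at 13.08 and 13.37 in WT and 13.19 and 13.34 in IkL/L.

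Of 19 T lineage factors 1 was called, Ikzf1 itself (median 0.06), and none of 25 genes of pre-T cell receptor and CD3 signalling (0.04), 10 of V(D)J recombination (0.03), 16 of later thymocytes (-0.18) or 14 DN3 markers (-0.14). Rag1, a subunit of the recombinase, was at 12.48 and 12.92 in WT and 11.71 and 11.99 in IkL/L, a difference of -0.85 ± 0.20 that did not pass (adjusted p = 0.10). The groups of Rag1 did not overlap. The interleukin-7 receptor gene Il7r (-1.35 ± 0.28; adjusted p = 0.062) and the stem cell factor receptor gene Kit (-1.11 ± 0.27; adjusted p = 0.12) did not pass either. Of 22 progenitor genes 2 fell, the homeobox gene Hoxa7 (-1.33 ± 0.25) and the Ets factor gene Erg (-1.99 ± 0.28), both with calls lost without any single DMSO array (median of the list 0.01). Of 21 Polycomb genes 1 fell, Cbx7 (-1.03 ± 0.19), likewise with a call lost without any single DMSO array.

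Of 19 chemokine receptors 2 fell, Gpr183 and Ccr9, the receptor through which thymocytes sense CCL25 (median 0.01). Ccr9 was at 11.52 and 11.63 in WT and 9.49 and 9.44 in IkL/L (-2.11 ± 0.13; adjusted p = 0.00036), and 4 other probe sets had the same sign, 2 of them called. Of 30 adhesion and migration genes 4 fell and 1 rose (median -0.02): Cdh1, Itgae, Epcam and the galectin gene Lgals1 (-0.49 ± 0.09) fell, and the tetraspanin gene Cd81 was at 8.91 and 8.66 in WT and 10.37 and 10.37 in IkL/L (1.59 ± 0.27). Of 27 cytokine receptors 2 fell, Il10ra (-1.96 ± 0.18) and Tgfbr1 (-1.31 ± 0.24), with a median of -0.10. Il10ra, the interleukin-10 receptor's ligand-binding chain, was at 6.69 and 6.70 against 4.84 and 4.64. Of 19 costimulatory and checkpoint receptors 3 fell: Ctla4 (-1.71 ± 0.27), its chromosomal neighbour Icos (-0.96 ± 0.18) and Cd96 (-1.41 ± 0.25), with a median of -0.04. Ctla4 was at 9.89 and 9.41 in WT and 7.93 and 7.95 in IkL/L. Ccr9, Cdh1, Itgae, Epcam and Il10ra stayed called whichever array was dropped. Those of Lgals1, Cd81, Ctla4, Icos and Cd96 were lost without any single DMSO array, and that of Tgfbr1 without WT DMSO replicate 2 or either IkL/L DMSO array.

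In the class II list 1 of 10 genes rose and 1 fell, and they are chromosomal neighbours. H2-Ab1, a chain of the class II molecule, was at 7.16 and 6.77 in WT and 8.48 and 8.53 in IkL/L (1.54 ± 0.24; adjusted p = 0.019), and H2-Ob went the other way. H2-Ob stayed called whichever array was dropped, and that of H2-Ab1 was lost without any single DMSO array.

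None of 28 G2/M genes was called, but 27 differences were positive, 26 groups lay apart with IkL/L higher (background 22.4%), and the median was 0.58. Plk1, a mitotic kinase, was at 9.59 and 8.29 in WT and 10.10 and 10.00 in IkL/L (1.11 ± 0.49, adjusted p = 0.50). Cdc25c of the same list differed by 0.92 ± 0.28 (adjusted p = 0.22). Why no member passed was not tested. With a covariate for RNA length (the GAPDH control signal at the 3' end minus that at the 5' end), 15 of the 28 were called. The fit with that covariate also called more of all genes, 1004 (448 higher) against 290 (115 higher) without it. That covariate was 1.71 and 2.12 in WT DMSO and 1.87 and 2.47 in IkL/L DMSO, and its part in the result was not tested further. None of 33 G1/S and replication genes was called (median 0.17). Of 23 FOXO and quiescence genes 2 fell, Pik3ip1, an inhibitor of phosphoinositide 3-kinase (-0.92 ± 0.17), and the antiproliferative gene Btg1 (-0.93 ± 0.18). In that list 20 differences were negative (median -0.35), and each call was lost without any single DMSO array. None of 28 ribosome biogenesis and MYC-activated genes (0.19), 16 of glycolysis (-0.11), 22 of the ATF4 and amino acid response (0.18), 16 of cholesterol synthesis (0.16), 13 ribosomal protein genes (-0.04) or 17 of the BCL2 family (0.03) was called. Among 19 p53 targets Cdkn1a alone was called (-0.16).

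The interferon-stimulated genes had the lowest median of any list, -0.68, with 26 of 27 differences negative, but none was called and 1 had an unadjusted p below 0.05. With the replicate number as a block 2 were called lower, and 8 with the stromal marker level as a covariate. Over all genes, these fits called 302 and 500 lower, against 175 in the main fit. The mean log2 level of the list was 9.20 and 7.65 in WT and 8.28 and 7.36 in IkL/L. The groups thus overlapped, and the gap between the WT replicates was larger than that between the genotypes. The immediate early list (25 measured, median 0.01, none called) held the same kind of gap. Fos, a gene induced within minutes of stimulation, was at 10.89 and 6.76 in the WT replicates and 6.62 and 6.58 in IkL/L. None of 22 cytokine and effector genes was called (-0.01).

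Of the marker lists, 1 of 22 stromal genes rose, Pdgfrb, a platelet-derived growth factor receptor, at 8.80 and 9.28 in WT and 10.19 and 10.33 in IkL/L (1.22 ± 0.20), a call kept among the DMSO arrays only without WT replicate 2. The median of that list was 0.14. Of 7 gamma-delta T cell markers measured outside X and Y, all differences were negative with a median of -0.51, and their mean level was 8.59 and 8.45 in WT and 7.52 and 7.52 in IkL/L. One was called, 5830411N06Rik (Scart2, a scavenger receptor gene), at 8.32 and 8.18 in WT and 6.04 and 5.51 in IkL/L (-2.48 ± 0.40; adjusted p = 0.024), a call lost without any single DMSO array. The kinase gene Blk of that list was at 8.92 and 8.14 against 6.37 and 6.58 (-2.06 ± 0.42) and did not pass (adjusted p = 0.061). The part of a changed share of such cells in these differences was not tested. No B cell (median 0.03), myeloid and dendritic (0.07), NK and innate lymphoid (0.03) or erythroid (0.00) marker was called.

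**Figure D3:**
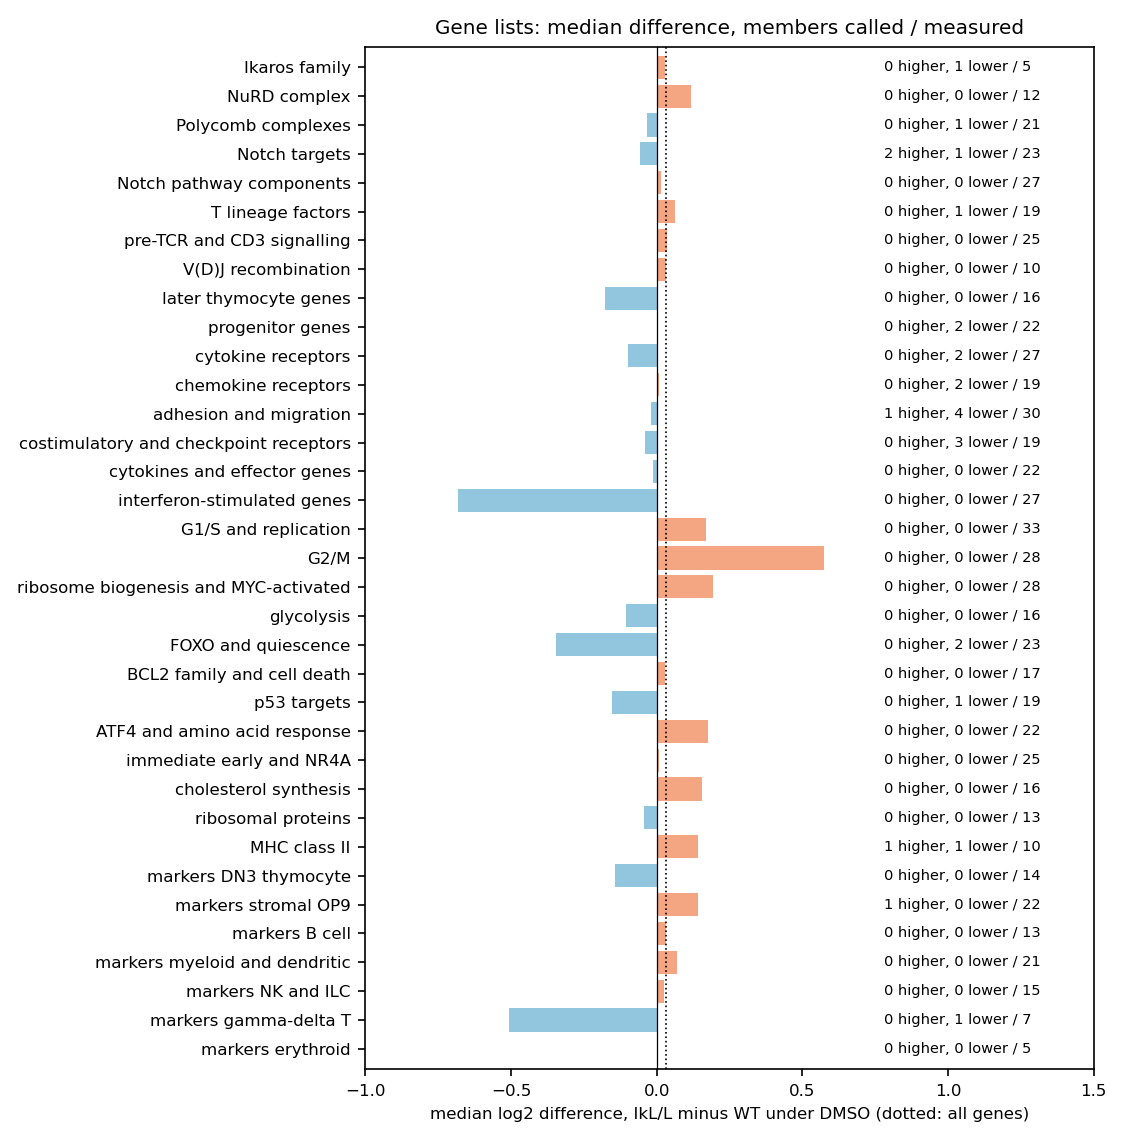
Median log2 difference (IkL/L minus WT under DMSO) of each gene list as a bar, with the number of members called higher and lower of those measured at the right. The dotted line is the median of all genes (0.03); the bars of the G2/M (0.58) and interferon-stimulated (-0.68) lists reach furthest, and neither list holds a called gene.

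The difference between the genotypes was also measured on the 4 GSI arrays, which had no part in the DMSO contrast though they share its estimate of spread. The same Y-linked difference was present, with Eif2s3y at 3.81 and 2.98 in WT GSI and 10.45 and 10.32 in IkL/L GSI. Deviations of the arrays numbered 1 from their group means correlated at 0.71 between WT DMSO and WT GSI. Between IkL/L DMSO and IkL/L GSI that correlation was -0.01. Agreement between the treatments is therefore not a fully independent repeat. Most genes that differed under DMSO leaned the same way under GSI, where 275 of the 290 had the same sign. With that sign 115 were called under GSI, against 1.44% of all genes (252). Rab44 was called with the opposite sign. The overlap was 40.0% of the genes called under DMSO and 46.0% of those called under GSI. Of the 115 genes higher in IkL/L, 110 kept their sign and 68 were called (background 0.924%), and their median difference was 1.35 under GSI and 1.52 under DMSO. Of the 175 lower genes, 165 kept their sign and 47 were called (background 0.513%), and their median was -0.70 under GSI and -1.38 under DMSO. The difference under GSI was under 0.5 times that under DMSO for 30 of the 115 and for 91 of the 175. All 290 were chosen by their DMSO difference, so a smaller difference under GSI is not a result by itself. Of the 290, 6 passed the limma test of the difference between treatments, described below. The median level of the lower genes in IkL/L was 6.68 and 6.52 under DMSO and 7.89 and 8.14 under GSI, and in WT 8.41 and 8.45 under DMSO and 9.21 and 8.90 under GSI.

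Ctnnd1, Dock1, Cdh1 and Itgae were called in both treatments. Ctnnd1 was 3.50 ± 0.30 higher under DMSO and 3.28 ± 0.30 under GSI. Cdh1 was at 10.64 and 10.49 in WT and 7.26 and 7.28 in IkL/L under GSI, a difference of -3.29 ± 0.18 (adjusted p = 0.00034). Itgae differed by -2.71 ± 0.19 and Dock1 by 3.34 ± 0.21 there, both called. The genotype difference under GSI minus that under DMSO was -0.20 ± 0.26 for Cdh1 and -0.63 ± 0.29 for Dock1, neither past the test. Scin was still lower in IkL/L under GSI, at 7.79 and 9.06 against 11.15 and 11.26 in WT (-2.78 ± 0.41).

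**Figure D4:**
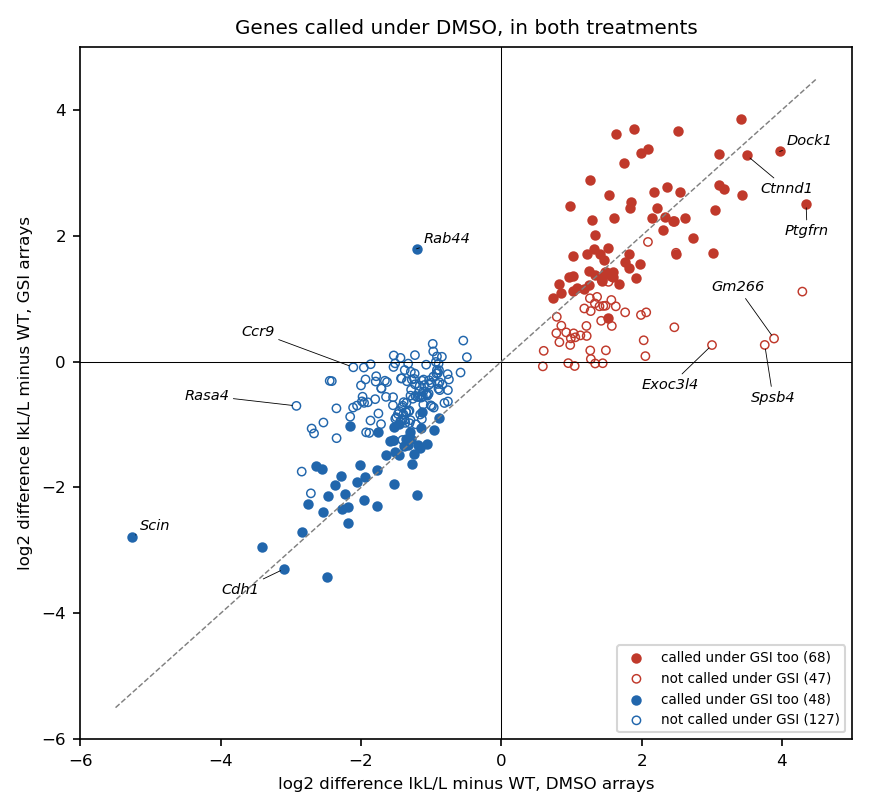
Log2 difference between IkL/L and WT on the DMSO arrays (horizontal) and on the GSI arrays (vertical) for the 290 genes called under DMSO, red higher and blue lower in IkL/L, filled where also called under GSI; the dashed line marks equal differences. Most points share a sign, Rab44 lies below zero on one axis and above it on the other, and Gm266, Spsb4, Exoc3l4 and Ccr9 lie close to the horizontal zero line.

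Whether the genotype difference itself differed between treatments was tested as an interaction, the difference under GSI minus that under DMSO. By limma 8 of 17534 genes (0.0456%) passed, with 1051 at an unadjusted p below 0.05, and 6 of the 8 were among the 290; the others were Mctp1 and Muc3. Gm266, a gene with no assigned function, was at 3.29 and 3.29 in WT and 7.25 and 7.11 in IkL/L under DMSO, and at 3.22 and 3.05 in WT and 3.24 and 3.77 in IkL/L under GSI. Only the IkL/L DMSO arrays stood above the dim end of the scale, and the interaction was -3.52 ± 0.24 (adjusted p = 0.0085). A second, dimmer probe set of Gm266 did not show this (-0.05 under DMSO). Exoc3l4 had the same order, 4.27 and 3.98 against 7.45 and 6.81 under DMSO and 4.02 and 3.97 against 4.12 and 4.40 under GSI (-2.74 ± 0.31; adjusted p = 0.048). The uncharacterised 2810459M11Rik also did, at 4.21 and 3.93 against 6.0 and 6.24 under DMSO and 3.85 and 4.09 against 4.07 and 4.04 under GSI (-1.97 ± 0.22; adjusted p = 0.046). Spsb4 followed the pattern, with means of 4.10 and 7.85 under DMSO and 3.48 and 3.74 under GSI, but its interaction of -3.49 ± 0.51 did not pass (adjusted p = 0.13).

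Gm266 and Exoc3l4 lie on chromosome 12 with their starts 68.4 kb apart and 1 measured gene between them, Tnfaip2. Tnfaip2 was at 5.84 and 5.51 in WT and 6.04 and 5.70 in IkL/L under DMSO (0.20; adjusted p = 0.86). The flanking genes Lbhd2 (0.05) and Eif5 (-0.11) did not pass either, so the differences seen in this stretch were those of Gm266 and Exoc3l4.

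Ccr9 was at 12.94 and 13.20 in WT and 13.03 and 12.93 in IkL/L under GSI, which overlapped (interaction 2.02 ± 0.18; adjusted p = 0.028). Atp8b4, a phospholipid flippase gene, was at 10.65 and 10.65 in WT and 8.61 and 8.77 in IkL/L under DMSO and at 11.90 and 11.91 against 11.67 and 11.96 under GSI (1.87 ± 0.21; adjusted p = 0.048). The interactions of Gbp8 (2.14 ± 0.34), Spib (2.11 ± 0.32) and Rasa4 (2.22 ± 0.28) did not pass, with adjusted p of 0.17, 0.15 and 0.06. Under GSI Rasa4 was at 12.30 and 11.74 in WT and 11.26 and 11.38 in IkL/L, still apart with IkL/L lower (-0.70 ± 0.20; adjusted p = 0.19). Rab44, a large Rab GTPase gene beside Cdkn1a on chromosome 17, changed sides: it was at 8.51 and 8.86 in WT and 7.37 and 7.58 in IkL/L under DMSO, and at 8.53 and 8.29 in WT and 10.13 and 10.27 in IkL/L under GSI (3.0 ± 0.29; adjusted p = 0.031). Each of these 6 interaction calls was lost when some single array was dropped. By limma, 0 genes passed after dropping the WT DMSO array numbered 1, with 1351 at an unadjusted p under 0.05, and likewise 0 after dropping the IkL/L DMSO array numbered 1, with 599. From 1 to 5 genes passed after any other array was dropped.

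**Figure D5:**
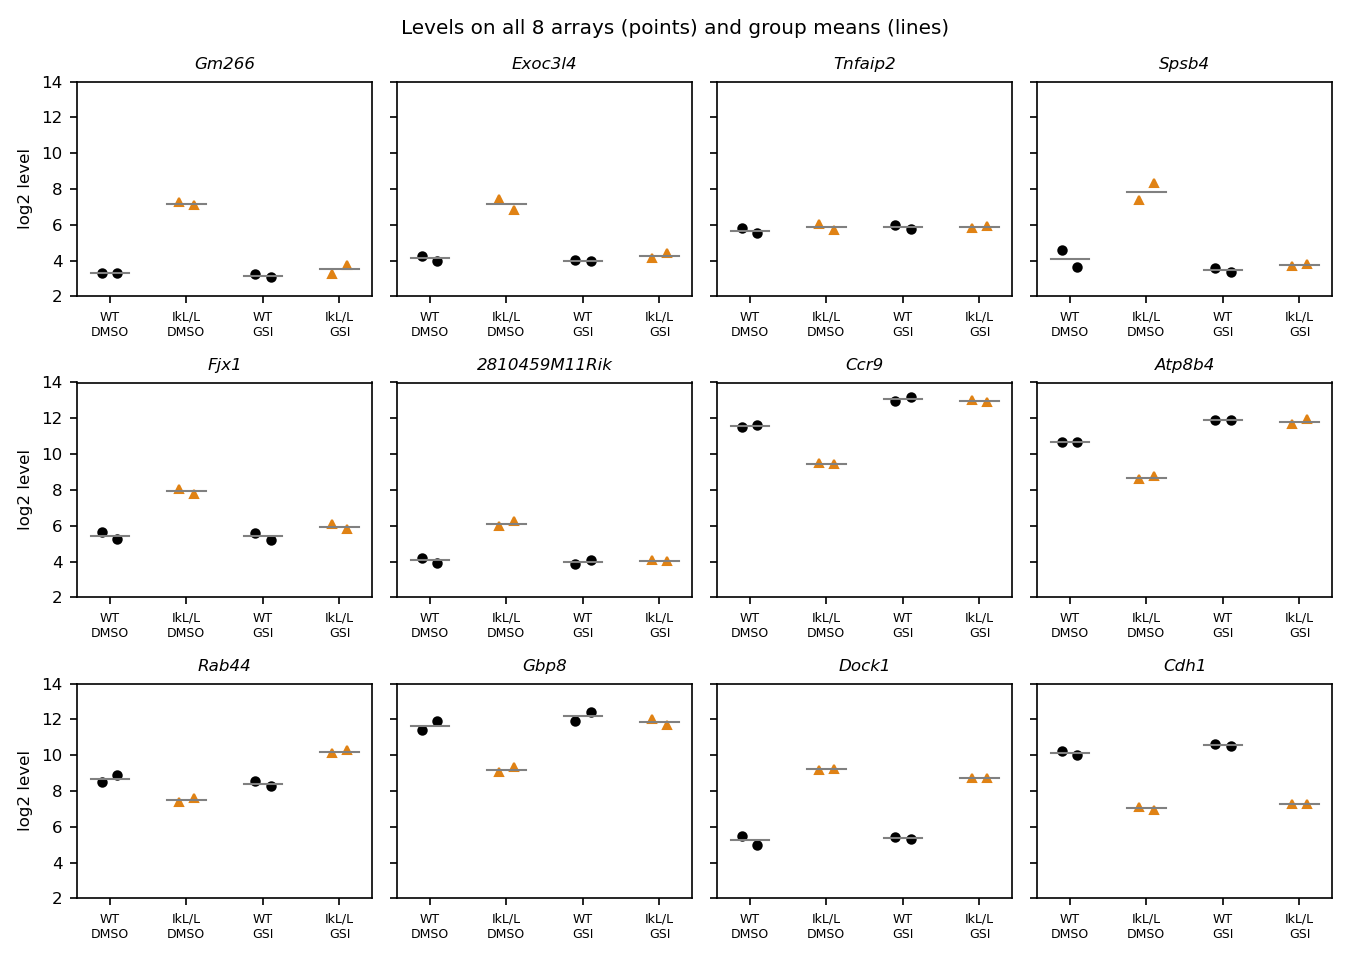
Log2 level of 12 genes on all 8 arrays (circles WT, triangles IkL/L; 2 arrays a group, lines are group means). Gm266 and Exoc3l4 are high in IkL/L DMSO cells alone while Tnfaip2 between them is level. Ccr9 and Atp8b4 are lowest in IkL/L DMSO cells and are higher under GSI than under DMSO in both genotypes. Dock1 and Cdh1 separate the genotypes in both treatments.

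Of the 290 called genes 163 had more than 1 probe set, and of their 289 other probe sets 263 had the same sign. Among the 95 of these that were at or above the level of the median gene, 93 had the same sign and 24 were called themselves over all probe sets. The called genes were spread over all autosomes, from 0.851% of the measured genes of chromosome 8 to 2.60% of those of chromosome 15. There were 12 pairs of neighbouring measured genes with both called, 10 of one sign, such as Ctla4 with Icos and Gbp8 with Gbp6, and 2 of opposite sign.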

How the data were processed

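RNA from the sorted DN3 cells went through two-cycle labelling, per the labels' protocols, and was measured on 8 Affymetrix mouse arrays. The values are log2 levels per probe set made by the authors with RMA, per the submitters' processing notes, and were used as deposited; the version of RMA is not given in the sources used here. RMA shrinks low signals toward a floor, so folds of dim genes are understated, and precision is limited by how few arrays there are.

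Of 45101 probe sets, 34945 named 1 gene; 9160 with no gene, 932 with several and 64 controls were left out. Each of 9020 genes with more than 1 probe set was represented by the brightest on average. Limma 3.58.1 in R 4.3.3 fitted 4 group means to 8 arrays (contrasts, eBayes with trend, two-sided; 4 residual and 4.11 prior degrees of freedom), with Benjamini-Hochberg adjustment over 18162 genes; 2 genes with no chromosome were kept. Values are log2 differences with moderated SE.

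The members, 35 gene lists and naming rule were chosen with earlier results of these data known. The rule took the 15 largest called increases and decreases with groups apart, without Rik, Gm-number and accession names, called list members (or 2 list members that did not pass), and fixed genes such as Ikzf1, Dtx1 and Rag1; the genes with a called interaction, Il7r, Blk, Plk1, Fos and the neighbours of Gm266 were picked once their values had been seen. Simulated data for the DMSO contrast gave back 41 of 100 genes shifted by 1 on the log2 scale and 92 of 100 shifted by 2, with 7 false calls of 17962. The simulated noise was independent between arrays and so lacked the shared deviations of same-numbered arrays given below. These counts may therefore not hold for the real arrays. The alternatives for the interaction were chosen after seeing the data. Alternatives were a replicate block, other gene summaries, filters, normalizations and priors, covariates, and each array left out.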

Additional observations from a re-analysis of the deposited data

Results flagged for a closer look

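The genotype difference itself differed between the treatments for 6 genes called under DMSO (limma interaction, GSI minus DMSO). It was -3.52 for Gm266 (adjusted p = 0.0085), -2.74 for Exoc3l4 (0.048) and -1.97 for 2810459M11Rik (0.046), whose increase in IkL/L was seen under DMSO and not under GSI. It was 1.87 for Atp8b4 (0.048) and 2.02 for Ccr9 (0.028), whose decrease was seen under DMSO and not under GSI, and 3.0 for Rab44 (0.031), which changed sign. Over the alternatives run, the adjusted p ranged from 0.0012 to 0.099 for Gm266, from 0.0057 to 0.24 for Exoc3l4, from 0.0065 to 0.22 for 2810459M11Rik, from 0.0065 to 0.33 for Atp8b4, from 0.0023 to 0.27 for Ccr9 and from 0.0036 to 0.22 for Rab44.

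Genes on the Y chromosome, which the comparison leaves out, gave a signal on the IkL/L arrays above that of the WT arrays. The lower of the IkL/L DMSO arrays was at a log2 level of 9.47 for Eif2s3y, 6.99 for Kdm5d and 6.26 for Uty. The WT DMSO arrays were at 3.77 and 3.42, 2.92 and 2.91, and 2.85 and 2.93. The IkL/L GSI arrays were at 10.45 and 10.32, 8.07 and 8.04, and 7.40 and 7.85. How a sex difference bears on genes outside X and Y cannot be told apart from genotype here.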

How the results depend on the processing

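The direction of all 54 called genes followed by name was kept under each alternative run; 29 stayed called whichever of the 8 arrays was dropped, and 38 under the other alternatives. Counts are given as genes called, higher, lower, at least 2-fold, and called with the same sign under GSI (main values 290, 115, 175, 246 and 115). Same-numbered arrays deviated together in the WT DMSO, WT GSI and IkL/L DMSO groups (correlations of 0.71, 0.579 and 0.561, with 0.579 between the DMSO groups compared) but not with IkL/L GSI (-0.112, 0.026 and -0.01), and the labels give no pairing, so the block was kept as an alternative. With the replicate block they were 503, 201, 302, within 1.5 times, and 208. With the stromal marker level as a covariate they were 800, 300, 500, 399 and 347, and with the GAPDH difference 1004, 448, 556, 484 and 365; all 290 genes were among those called in each of these fits. Among genes above the median level 64 were higher (30.3% of calls, against 39.7%). Leaving out 1 array gave ranges of 67 to 397, 33 to 163, 32 to 234, 67 to 303 and 38 to 119; the share higher was 53.6% without replicate 2 of either DMSO group and 49.3% without IkL/L DMSO replicate 1. The interaction, called for 8 genes, gave 24 with the replicate block, 55 with the stromal and 63 with the GAPDH covariate, 2 among genes above the median level, 3 with arrays centred, 2 without the mean-variance trend, 1 with every probe set as a feature, and 0 to 5 with 1 array left out; these were chosen after seeing the data.

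Some genes that were not called changed sign. With the GAPDH covariate Ermap was 0.006, Ikzf2 -0.155, Hes1 0.011 and Notch1 -0.048, and with the stromal covariate Myc was -0.099. With probe sets averaged Ikzf2 was -0.197 and Nrarp -0.04. Without WT DMSO replicate 1 Id2 was 0.024, Ermap 0.09, Ikzf2 -0.333, Nrarp -0.15 and Notch1 -0.102. Without WT DMSO replicate 2 Ncstn was 0.037 and Myc -0.147. Without IkL/L DMSO replicate 1 Nrarp was -0.079 and Myc -0.132, and without IkL/L DMSO replicate 2 Ikzf2 was -0.246 and Notch1 -0.033. With 1 array left out, the other ends of these ranges were -1.179 for Ncstn, -0.862 for Id2, -0.292 for Ermap, 0.38 for Ikzf2, 0.265 for Nrarp, 0.183 for Notch1 and 0.165 for Myc. The cause was not tested. With 2 arrays a group, a log2 difference of 1 was often missed in simulated data.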

Other observations

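Some gene families outside the lists held several called genes. They were put together after their values were seen, and because they held called genes, so the counts carry no test and are not a result about the families. Over all genes 0.656% were called higher and 0.998% lower. Of 10 measured genes of the WAVE complex, which drives branched actin assembly, 3 were higher in IkL/L under DMSO: Wasf1 (1.02), Abi2 (1.53) and Nckap1 (1.34), with a median of 0.02 over the family. Of 12 DOCK and ELMO genes, Dock1, Dock5 (1.42) and Dock6 (0.98) were higher. Of 11 cadherins and catenins, Ctnnd1 and Ctnna1 were higher and Cdh1 lower. Ctnna1, alpha-catenin, which links cadherins to actin, was at log2 levels of 10.03 and 10.09 in WT and 11.48 and 11.50 in IkL/L.

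Of 5 guanylate-binding protein genes, Gbp6 (-2.0) and Gbp8 were lower, and of 13 MS4A genes, Ms4a4b and Ms4a6b (-2.16) were lower. Ms4a6b was at 11.17 and 11.30 in WT and 9.13 and 9.02 in IkL/L. Of 10 Frizzled genes, receptors of Wnt proteins, Fzd3 (0.82) and Fzd7 (1.48) were higher, and of 6 PDGF genes Pdgfa (1.27) and Pdgfrb were.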
